A study of Mus musculus with 2 samples.

Results

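A set of 169 neuronal nuclei from the mouse hippocampal dissection was picked out of 10800 control nuclei by 12 genes. A nucleus was a member when it held at least 1 UMI (unique molecular identifier, a counted RNA molecule) of 4 or more of the 7 genes Pdzrn3, Npsr1, Tshz2, Rmst, Cdh20, Tshz3 and Cux2, and none of the 5 genes Gad1, Gad2, Glis3, Vwc2l and Foxp2. The members made up 1.56% of the control nuclei (exact 95% binomial interval 1.34 to 1.82%) and held 633966 of 42183289 UMIs. The working label of the set was parahippocampal, after the cortex that borders the hippocampus. The other genes of these nuclei went against a single class: with the 12 genes left out, the members fell into 3 separate clusters, led by Fn1, Gpc6 and Rxfp1, and they are described by those genes below.

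The study sequenced RNA of sorted neuronal nuclei from the hippocampus of C57/Bl6 mice at postnatal day 75, in work on how microglia remodel the extracellular matrix at synapses. The control library came from 1 male and 1 female wild-type mouse, in 1 library. The second library, enriched for IL-33, was labelled as from 1 female heterozygous for Il33-H2B-mCherry, a reporter of the Il33 gene, while a note on it speaks of both male and female cells in its raw file. With 1 library in each group there is no replicate, so no test was possible. All values are descriptions, and the intervals given with them cover counting error only.

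The hippocampal formation passes signals from the entorhinal cortex through the dentate gyrus, CA3 and CA1 to the subiculum, which sends the output back to cortical and subcortical areas. The presubiculum, parasubiculum, retrosplenial and entorhinal cortices lie next to the subiculum, and a dissection of the hippocampus can carry pieces of them. Tshz2 and Tshz3 encode teashirt zinc-finger transcription factors. Cdh20 is a cadherin, a calcium-dependent adhesion protein. Npsr1 is the receptor of neuropeptide S, Pdzrn3 a ubiquitin ligase with PDZ domains, Rmst a long noncoding RNA, and Cux2 a homeodomain factor of upper-layer cortical neurons.

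Depth in the control library ran from 1746 to 7998 UMIs per nucleus, with a median of 3265 in the members and 3580 in the non-members. Predicted doublets numbered 337 of the control nuclei, 7 of them members. The 2 libraries shared 24 cell barcodes, which were kept.

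The 7 positive genes were not found together at equal rates in the members, as a description of the rule. Tshz2 was present in all 169 members, Tshz3 in 95.3% and Cdh20 in 89.9%. Pdzrn3 had a UMI in 94 of the 169 (55.6%, 47.8 to 63.2%), Npsr1 in 92 (54.4%), Rmst in 90 (53.3%) and Cux2 in 36 (21.3%). Among the non-members the same genes had a UMI in 19.9% of nuclei for Tshz2, 22.4% for Tshz3, 17.9% for Cdh20, 4.73% for Npsr1, 12.8% for Rmst and 6.94% for Cux2, and Pdzrn3 in 1277 of 10631. The combination met most often was Npsr1, Tshz2, Cdh20 and Tshz3 alone, in 40 members.

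Most members stood at the edge of the rule. Of the 169, 98 held exactly 4 of the 7 genes, 35 held 5, 25 held 6 and 11 held all 7. Another 194 nuclei without any of the 5 excluded genes held exactly 3 and fell just outside. These 194 had a median of 4048 UMIs, above that of the members. When every nucleus was first thinned at random to 1700 UMIs, 154 nuclei met the rule and 97 of them were members.

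The 5 excluded genes removed more nuclei than they left. Of 713 nuclei with 4 or more of the 7 positive genes, 544 held a UMI of at least 1 excluded gene and 169 (23.7%) were kept. Vwc2l, which encodes a secreted protein with von Willebrand factor C domains, had a UMI in 429 of the 713 and was the sole reason for removal in 278. Glis3, a zinc-finger transcription factor, had a UMI in 154 and acted alone in 54. Foxp2, Gad2 and Gad1 had a UMI in 68, 59 and 37. For comparison, in the 1282 nuclei of the cluster that held most nuclei with both Galntl6 and Fibcd1, Glis3 had a UMI in 15.8%, Vwc2l in 7.41%, Foxp2 in 3.98%, Gad1 in 3.98% and Gad2 in 3.28%. The median depth was 4326 UMIs in that cluster and 3331 in the 713 nuclei. How many of the 544 nuclei were removed for stray RNA was not tested. The more positive genes a nucleus held, the less often it was kept up to 6: 31.9% of nuclei with 4, 18.8% with 5 and 15.4% with 6, then 19.0% with 7.

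With the 12 rule genes left out, clustering of all control nuclei on 2000 variable genes gave 22 clusters. The Fn1 cluster held 65 of the 169 members (38.5%, 31.1 to 46.2%), the Gpc6 cluster 61 (36.1%, 28.9 to 43.8%) and a small Rxfp1 cluster 30 (17.8%, 12.3 to 24.4%). The last 13 members lay in 10 clusters, with at most 2 in any of them. Members were a minority of each cluster: 65 of 614 nuclei, 61 of 419 and 30 of 80. The split and the names were chosen after these values were seen. When genes were scaled to equal variance before clustering, most members of the Gpc6 and Rxfp1 clusters fell together in a cluster with 85 members, and 66 members lay in the next.

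**Figure D1:**
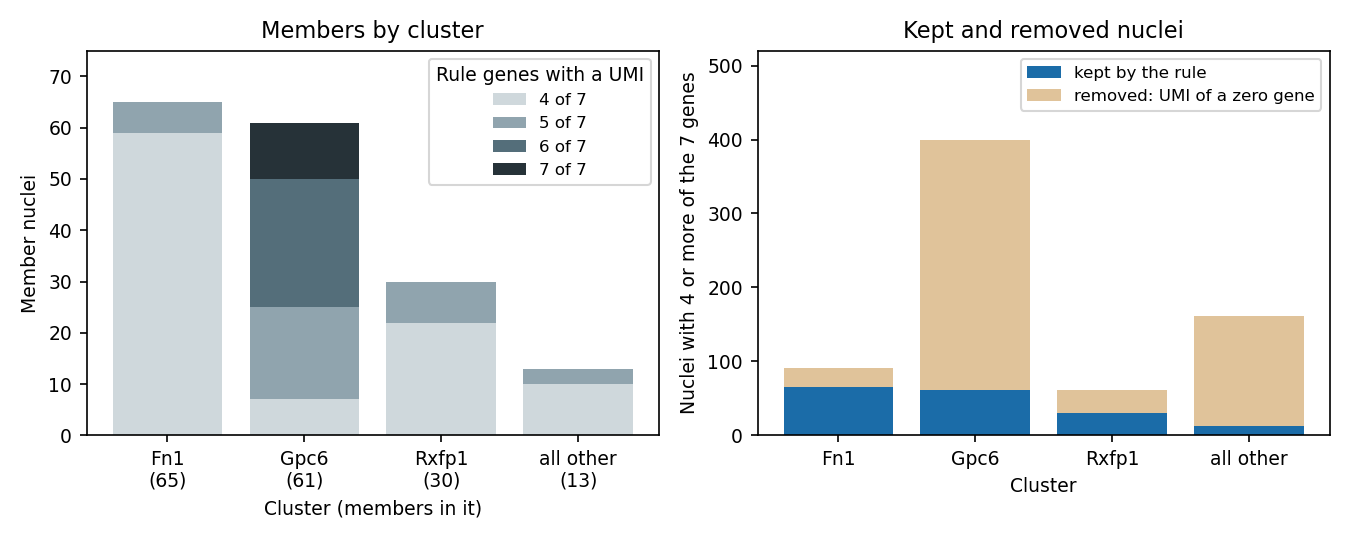
Left, member nuclei (y axis, count) in the 3 clusters and in all other clusters, shaded by how many of the 7 positive genes had a UMI. Right, nuclei with 4 or more of the 7 genes (y axis, count), split into those kept by the rule and those removed for a UMI of an excluded gene; the Gpc6 cluster has 338 removed nuclei beside 61 kept.

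The Gpc6 cluster carried the positive genes most fully, and the rule discarded most of it. Of its 419 nuclei, 399 (95.2%) held 4 or more of the 7 genes, against 14.8% in the Fn1 cluster and 76.2% in the Rxfp1 cluster. All 25 members with 6 positive genes and all 11 with 7 lay in it. Of the 399, 338 were removed, 211 of them for Vwc2l alone. Vwc2l had a UMI in 75.4% of the cluster (71.0 to 79.5%), with a mean of 2.25 UMIs per nucleus, against 14.8% of the Fn1 cluster, 10.0% of the Rxfp1 cluster and 14.7% of the other 19 clusters. When Vwc2l was allowed, 447 nuclei met the rule and 272 of them (60.9%) were of the Gpc6 cluster.

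Members of the Gpc6 cluster differed little from the nuclei of that cluster which the rule left out. Of 1337 genes with at least 20 expected UMIs in the smaller group, 1 was 2-fold or more higher in the members (0.0748%) and 2 were 2-fold or more lower (0.15%). The first was Jph1, a junctophilin, and the others were Gmds, an enzyme of GDP-fucose synthesis, and Ogt, the O-GlcNAc transferase, all 3 named after their values were seen. With trimmed-mean-of-M-values scaling, called trimmed-mean scaling below, which moved the ratios by 0.12 on the log2 scale, the counts were 0 and 5. Gpc6 itself, a cell-surface heparan sulphate proteoglycan (glypican), stood at 2025 CPM (UMIs of the gene divided by the UMIs of the group and scaled per 1000000) in the 61 members and at 2101 CPM in the whole cluster.

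In the Fn1 cluster a small share of genes differed by 2-fold between the members and the other nuclei. Whether these members form a distinct subset was not tested. Genes were counted from near 66.0 CPM here, 110 CPM in the Gpc6 cluster and 223 CPM in the Rxfp1 cluster. The shares of the clusters are therefore not directly comparable. Of 2186 genes, 12 were 2-fold or more higher in the Fn1 members than in the cluster's other nuclei (0.549%) and 38 were 2-fold or more lower (1.74%). Angpt1, a ligand of the Tie2 receptor, was at 188 CPM against 50.7 CPM, a ratio of 3.71 (2.67 to 5.08). Tenm3, a teneurin adhesion protein, was at 3771 against 1195 CPM, and Fn1, fibronectin, at 350 against 148 CPM. On the lower side Plppr1 was at 23.1 against 111 CPM and Kirrel3, an immunoglobulin adhesion protein, at 472 against 1528 CPM. The members of this cluster had a median of 4471 UMIs and its other nuclei 4872. In the Rxfp1 cluster 4 of 654 genes were 2-fold or more higher in the members than in its other nuclei (0.612%) and 4 were lower (0.612%), led by Col23a1 at 480 against 187 CPM and Sgcz, a sarcoglycan, at 970 against 2399 CPM.

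The positive genes divided the members along the same clusters. Pdzrn3 had a UMI in 91.8% of the 61 members in the Gpc6 cluster (81.9 to 97.3%), in 15.4% of the 65 in the Fn1 cluster (7.63 to 26.5%) and in 66.7% of the 30 in the Rxfp1 cluster. Rmst followed the same order, with 83.6%, 24.6% and 50.0%. Npsr1 did not: it was present in 55.7% of the Gpc6 group, 72.3% of the Fn1 group and 26.7% of the Rxfp1 group. Cux2 was found in 30 of 61, 3 of 65 and 0 of 30 members, and the last, by the limit of 3 counts, allows a share of nuclei with a Cux2 UMI of up to 10.0% at this depth. The lowest share of Tshz2, Tshz3 or Cdh20 in any group was that of Cdh20 in the Rxfp1 group, 27 of 30 members.

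The 3 groups differed in depth, with medians of 2757 UMIs per nucleus in the Gpc6 group, 4471 in the Fn1 group and 2886 in the Rxfp1 group. After each nucleus was thinned to 1700 UMIs, Pdzrn3 was left in 75.4%, 6.15% and 56.7% of the 3 groups and Rmst in 67.2%, 7.69% and 43.3%. Thinning left Npsr1 in 47.5%, 55.4% and 23.3%. At 1700 UMIs, 7.65% of all non-members held Pdzrn3 and 8.17% Rmst. Among the non-members of the Fn1 cluster the shares were 2.19% and 2.73%. Both are genes of the rule, so these shares only describe what it took. Members of the Fn1 group entered mainly by Tshz2, Tshz3, Cdh20 and Npsr1: 59 of 65 held exactly 4 of the 7 genes, and 36 held exactly those 4.

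**Figure D2:**
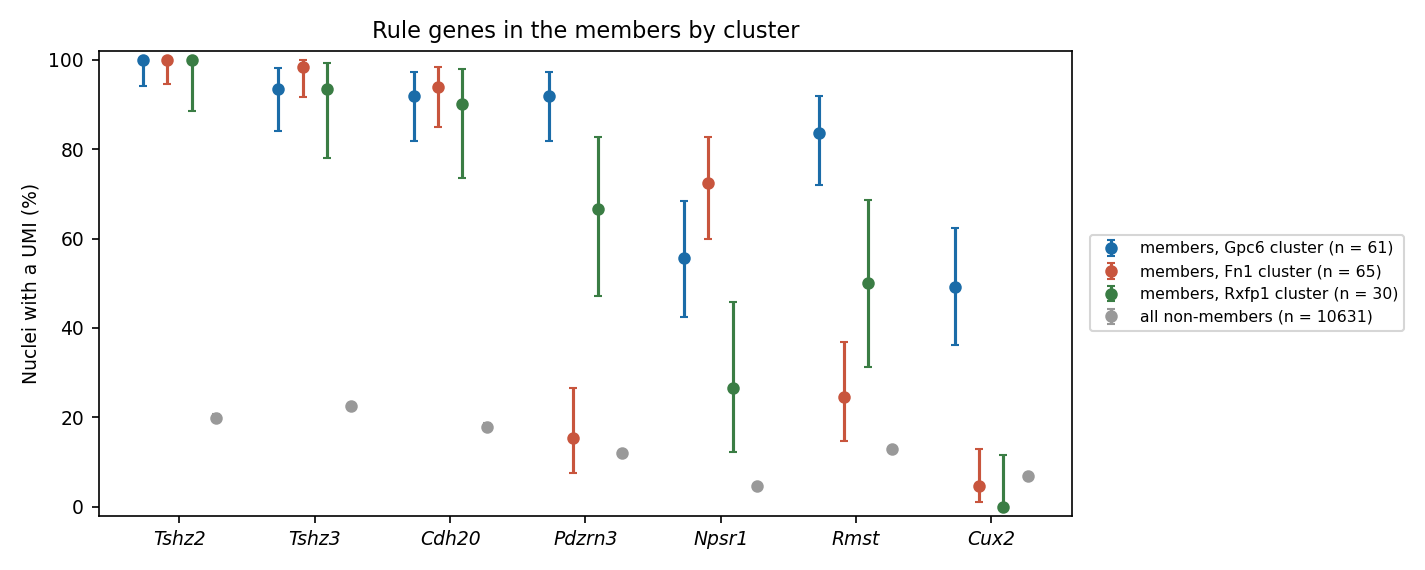
Share of nuclei with a UMI (y axis, percent, with exact 95% binomial intervals) of each of the 7 positive genes, for the members in each cluster and for all 10631 non-members. Pdzrn3, Rmst and Cux2 lie apart between the Gpc6 and Fn1 groups, whereas Tshz2, Tshz3 and Cdh20 are high in every group.

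Against all other control nuclei, Fn1 and Rxfp1 had the highest ratios. The Fn1 group gave 302865 of the 633966 UMIs of the members, so it weighs most in any ratio over all members. Of 3958 genes with at least 20 expected UMIs, 98 were 2-fold or more higher in the 169 members (2.48%) and 107 were 2-fold or more lower (2.7%). Fn1 stood at 169 CPM in the members and 18.8 CPM in the non-members, a ratio of 8.99 (7.28 to 11.0). Of the 107 Fn1 UMIs in members, 106 were in the Fn1 group and 0 in the Gpc6 and Rxfp1 groups. Rxfp1, the relaxin receptor, was at 174 against 20.7 CPM, a ratio of 8.37 (6.80 to 10.2). It was raised in each group, with 116 CPM in the Gpc6 group, 168 CPM in the Fn1 group and 424 CPM in the Rxfp1 group.

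Angpt1 (8.19-fold) and Vat1l (7.81-fold) followed, and both were far from the non-members in the Fn1 and Rxfp1 groups. Angpt1 was at 188 CPM in the Fn1 group, 178 CPM in the Rxfp1 group and 22.0 CPM in the Gpc6 group, which held 4 of the 78 UMIs. Adamts2, a protease that trims procollagen, was at 195 CPM in the Fn1 group and rested on 1 UMI in each of the other two. Stac, an adaptor of voltage-gated calcium channels, was at 406 CPM, 16.5 CPM and 0 in the Fn1, Gpc6 and Rxfp1 groups. Brinp3, a neural protein induced by retinoic acid, was at 2546 CPM and in every nucleus of the Fn1 group, at 1349 CPM in the Rxfp1 group and at 165 CPM in the Gpc6 group, where the non-members stood at 319 CPM.

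Some of the genes with the highest ratios were above the non-members in all 3 groups. Tox, a high-mobility-group nuclear factor, was at 1078 CPM in the Gpc6 group, 508 CPM in the Fn1 group and 1294 CPM in the Rxfp1 group, against 191 CPM in the non-members. Col23a1, a transmembrane collagen, was at 176, 106 and 480 CPM in the same order, against 38.2 CPM. Efcab6 and Bmper, a secreted binder of bone morphogenetic proteins, were also more than 2-fold higher in each group. Ptprt, a receptor tyrosine phosphatase, was at 1794 CPM in the Gpc6 group and 2625 CPM in the Fn1 group, with 402 CPM in the Rxfp1 group and 407 CPM in the non-members. Cdh7, Rgs20 and Mctp2 completed the 15 genes with the highest ratios, with ratios over all members of 4.85, 3.99 and 3.46.

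The 10 genes with the lowest ratios were Rnf182, Maml2, Rerg, Zfp536, Tmcc3, Rreb1, Ankrd6, Mmd2, Frmd4b and Cecr2, with ratios from 0.205 to 0.285. Rnf182, a ubiquitin ligase, was at 20.5 CPM in the members and 100 CPM in the non-members, and at 22.0, 19.8 and 11.2 CPM in the Gpc6, Fn1 and Rxfp1 groups. Maml2, a coactivator of Notch signalling, gave 8 UMIs in all members, 0 of them in the Gpc6 and Rxfp1 groups. Each of the 10 gave fewer than 20 UMIs in every group, and the open triangles and long bars of the plot of log2 ratios show how wide their intervals were.

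**Figure D3:**
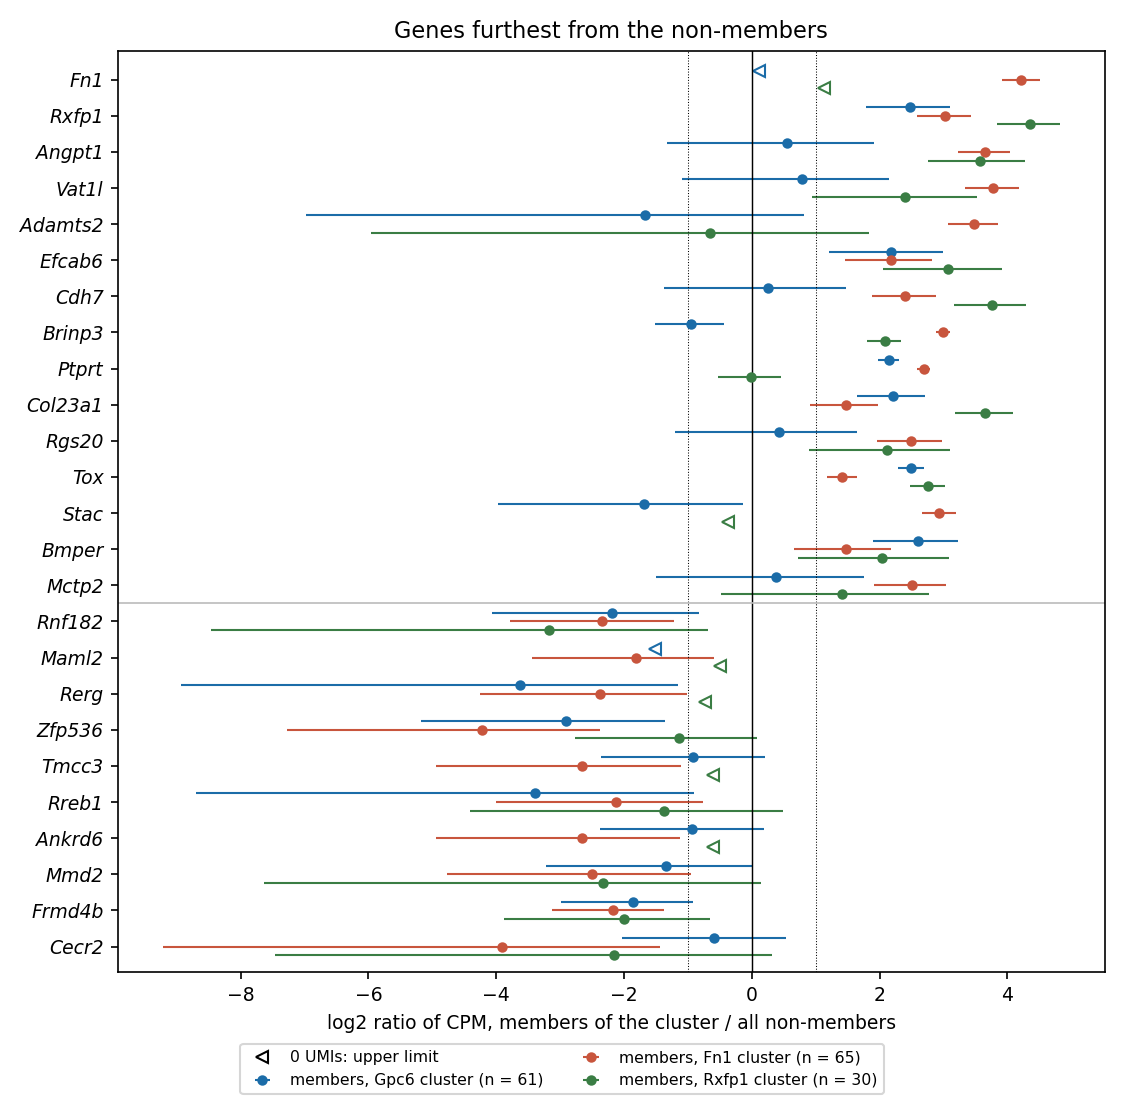
Ratio of CPM (x axis, log2) of the members in each cluster to all non-members, with exact 95% intervals, for the 15 genes with the highest and the 10 with the lowest ratios over all members; open triangles give the upper limit where a group had 0 UMIs. Fn1, Adamts2, Brinp3 and Stac are high in the Fn1 group and not in the Gpc6 group.

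Set against each other, the Gpc6 and Fn1 groups were far apart. Of 1333 genes, 122 were 2-fold or more higher in the Gpc6 group (9.15%) and 110 were 2-fold or more lower (8.25%). With trimmed-mean scaling, a shift of 0.13 on the log2 scale, the counts were 94 and 144. Gpc6 was at 2025 against 72.6 CPM, a ratio of 27.9 (18.1 to 45.0). Meis2, a homeodomain transcription factor, was at 567 against 29.7 CPM. In the other direction Fn1 had 0 UMIs against 106, Etv1, an ETS factor, was at 33.0 against 406 CPM, and Htr1f, a serotonin receptor, was at 71.5 against 538 CPM. Since these clusters were drawn from the same genes, the differences describe the groups and test nothing.

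The Rxfp1 group shared part of its profile with each of the others. Of 635 genes, 56 were 2-fold or more higher in it than in the Fn1 group (8.82%) and 56 were lower, or 42 and 85 with trimmed-mean scaling. Of 655 genes, 38 were higher in the Gpc6 group than in it (5.8%) and 42 were lower (6.41%), or 54 and 33 with that scaling. Meis2 was at 435 CPM, above the non-members at 113 CPM. Pcdh11x, a protocadherin, was at 803 CPM against 297 CPM in the Gpc6 group and 49.5 CPM in the Fn1 group. Cntn6, a contactin, was at 524 CPM in the Rxfp1 group and 479 CPM in the Fn1 group, with 60.5 CPM in the Gpc6 group. The Rxfp1 group held 89673 UMIs, so only genes near 223 CPM or more reached the floor.

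Marker lists of cortical and hippocampal areas gave no single source for the members. The subiculum list (Fn1, Nts, Dlk1, Slc17a6, Tpbg and Ndst4) summed to 705 CPM in all members and 298 CPM in the non-members, a ratio of 2.37 (2.15 to 2.60). By group the ratio was 4.43 (3.99 to 4.89) in the Fn1 group, 0.555 (0.374 to 0.792) in the Gpc6 group and 0.375 in the Rxfp1 group. In the whole Fn1 cluster 3 of the 6 markers were 2-fold or more higher, Fn1, Ndst4 and Slc17a6, so the cluster was called subiculum-like. To name clusters, here and below, 20 CPM was added to both levels before the ratio. A name needed 3 such markers, each with at least 20 UMIs in the control library. Fn1 and Ndst4 were also among the 10 genes that lead the cluster. Ndst4, a heparan sulphate-modifying enzyme, was at 908 CPM in the Fn1 group. Slc17a6, the vesicular glutamate transporter VGLUT2, rested on 16 UMIs. Nts had 2 UMIs in all members, and Dlk1 and Tpbg had 0.

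The list of upper-layer cortical intratelencephalic neurons, which project within the cortex, ran the other way. Its summed level was 2.18-fold that of the non-members in the Gpc6 group (1.89 to 2.50), 0.360-fold in the Fn1 group (0.273 to 0.467) and 1.30-fold in the Rxfp1 group (0.996 to 1.67). In the Gpc6 group Mef2c, a MADS-box factor, was at 468 against 200 CPM. Rasgrf2 was at 204 against 120 CPM and Cux1 at 82.5 against 50.5 CPM, both under 2-fold. In this group 3 of the 10 listed genes reached the floor, and Lamp5 and Stard8 had 0 UMIs. With 2 of the 10 markers 2-fold or more higher in the whole cluster, the Gpc6 cluster was left unnamed. The Rxfp1 cluster also had 2 and was left unnamed too.

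The list for superficial layers of the retrosplenial cortex and presubiculum was above the non-members in every group, with ratios of 2.46 in the Gpc6 group, 1.72 in the Fn1 group and 1.91 in the Rxfp1 group. Most of the difference lay in Zmat4, a zinc-finger protein, at 946, 627 and 725 CPM against 340 CPM. Cxcl14 of the same list had 0 UMIs in all members. The list for layers 2 and 3 of the entorhinal cortex was below the non-members, with a ratio of 0.728 (0.673 to 0.786) in all members. It summed to 1051 against 1443 CPM. Of its 6 genes 4 reached the floor over all members, and 1 did in each of the Gpc6 and Fn1 groups. Reln, reelin, was 2-fold or more lower, at 33.1 against 81.3 CPM, so most of the difference lay outside Reln. Sim1 had 0 UMIs and Wfs1 had 3. Neither of these 2 lists had 3 markers that were 2-fold or more higher in any of the 3 clusters.

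Lists of deeper layers took different values by group. In the Fn1 group the layer 5 extratelencephalic list had a ratio of 1.76 (1.5 to 2.06), the near-projecting list 1.97 (1.67 to 2.3) and the layer 6b list 2.47 (1.62 to 3.61). The same lists were at 0.419, 0.529 and 0.609 in the Gpc6 group and at 0.517, 0.943 and 0.617 in the Rxfp1 group. In the Fn1 group each of these lists drew most of its UMIs from 1 gene. Bcl11b gave 109 of the 161 UMIs of the layer 5 extratelencephalic list in that group. Etv1 gave 123 of the 155 UMIs of the near-projecting list there. Nr4a2 gave 26 of the 27 UMIs of the layer 6b list, where Ctgf, Cplx3 and Nxph4 had 0. The layer 6 corticothalamic list was at 0.425 over all members. Hs3st4, a heparan sulphate sulphotransferase of corticothalamic neurons, was at 390 against 1081 CPM. Bcl11b and Etv1 of layer 5 lists were at 360 and 406 CPM in the Fn1 group and at 60.5 and 33.0 CPM in the Gpc6 group, with 207 and 115 CPM in the non-members. The claustrum, endopiriform and amygdala list had a ratio of 0.912 over all members. Of its 2 raised genes, Nr4a2, a nuclear receptor, had 26 of its 32 UMIs in the Fn1 group. Rspo2, a Wnt agonist, was at 209 CPM in the Gpc6 group, 277 CPM in the Fn1 group and 44.6 CPM in the Rxfp1 group.

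**Figure D4:**
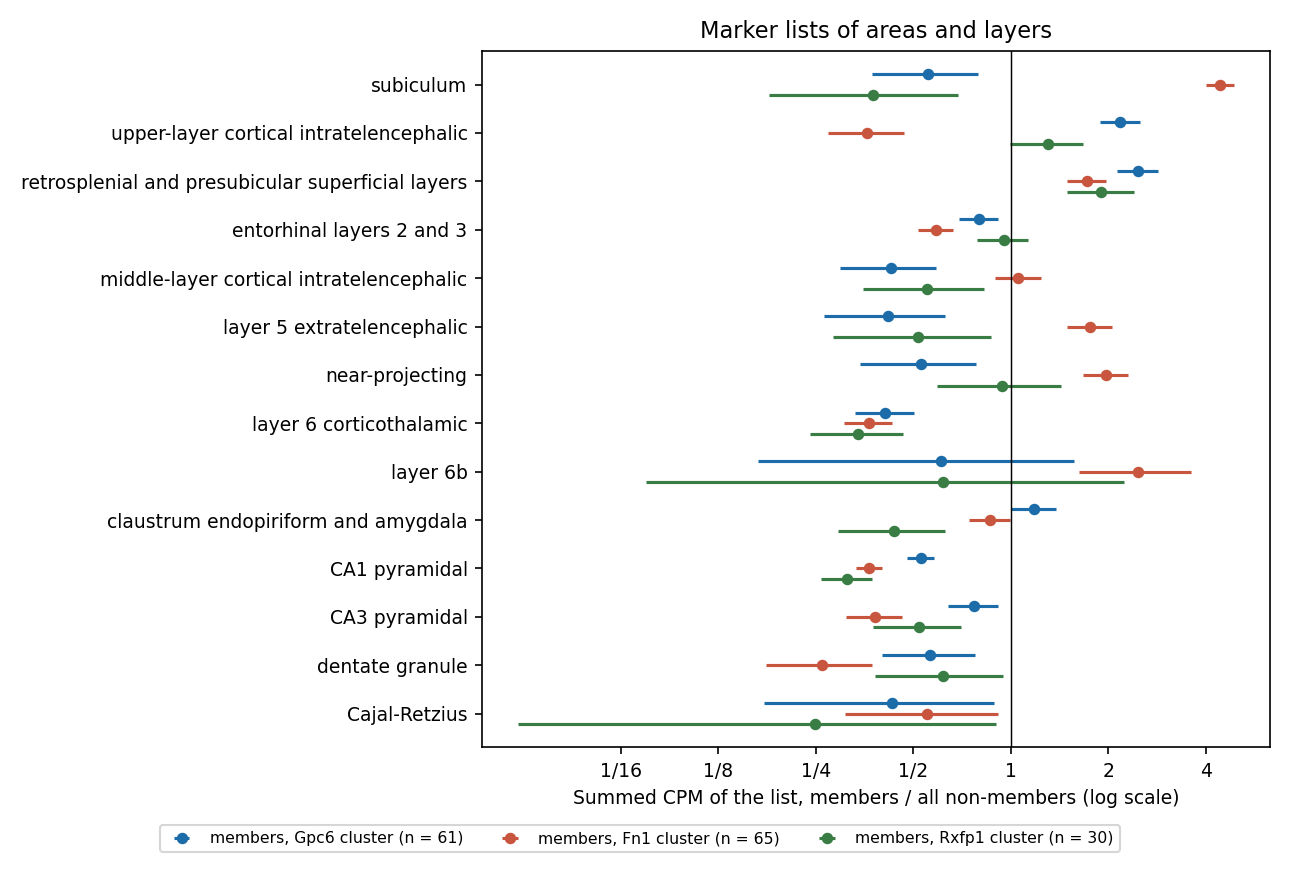
Summed CPM of each marker list in the members of each cluster divided by that in all non-members (x axis, log scale with base 2; exact 95% intervals), for 14 of the 18 lists of areas and layers. The subiculum and upper-layer lists place the Fn1 and Gpc6 groups on opposite sides of 1.

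The summed levels of the CA1, CA3 and dentate granule lists were below the non-members in all 3 groups. The rule had removed every nucleus with Glis3, which had a UMI in 39.9% of the control nuclei. The CA1 list was at 0.485 of the non-members over all members, the CA3 list at 0.557 and the dentate granule list at 0.440. The CA2 list had a ratio of 0.831 (0.571 to 1.17), with an interval that included 1 in each group too, and the hilar mossy cell list gave 2 UMIs in all members. Over all members Galntl6 of the CA1 list was at 1606 against 3852 CPM, where the whole list summed to 2088 against 4309 CPM. The lower sum of that list thus lay in Galntl6, and its other genes together were not lower. In the Fn1 group Mpped1 of the same list was 2-fold or more higher. Zbtb20, a zinc-finger repressor that sets CA1 identity in development, was at 1011 against 2835 CPM and below the non-members in each group, at 1056, 703 and 1004 CPM in the Gpc6, Fn1 and Rxfp1 groups.

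For other cell types, the GABA interneuron list was at 1344 against 3139 CPM, where the rule had removed every nucleus with Gad1 or Gad2. Erbb4, the neuregulin receptor, Adarb2 and Nxph1 were the 3 of its 12 genes above the floor, and all 3 were 2-fold or more lower. Oligodendrocyte markers were at 99.4 against 55.8 CPM, with 3 of 6 at 0. Mbp, myelin basic protein, accounted for 60 of these UMIs and was at 77.0 to 112 CPM across the 3 groups. Whether its RNA bears on other results was not tested. Astrocyte markers were at 114 against 185 CPM, microglial markers at 9.46 against 15.4 CPM, endothelial and mural markers at 3.16 against 5.85 CPM, and all 5 markers of oligodendrocyte precursors were at 0. Slc17a7, the vesicular glutamate transporter VGLUT1, was at 101 against 129 CPM, and its share of nuclei with a UMI was 30.2% against 37.7%.

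Among transcription factors of cortical neurons, 24 of 39 listed genes reached the floor, and 5 were higher and 5 lower by 2-fold, against 2.48% and 2.7% of all genes. The median log2 ratio was 0.08, beside -0.03 over all genes. Ldb2, a LIM-domain-binding cofactor, was at 1032 against 378 CPM and 2.45-fold, 3.01-fold and 3.34-fold higher in the Gpc6, Fn1 and Rxfp1 groups. Satb1 was at 151 against 68.6 CPM. On the lower side Zeb2 was at 379 against 991 CPM and below the non-members in each group, and Prox1, a homeodomain factor of granule cells, was at 34.7 against 71.2 CPM.

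Adhesion genes were more often higher than lower over all members, and not in every group. Of 18 cadherins and protocadherins above the floor, 5 were 2-fold or more higher (Cdh6, Cdh7, Cdh22, Pcdh11x and Pcdh15) and 0 were lower, against 2.48% and 2.7% of all genes, with a median log2 ratio of 0.26. By group, 2 were higher and 2 lower of 14 in the Gpc6 group (all genes 4.52% and 5.98%), 2 and 3 of 16 in the Fn1 group (5.54% and 7.89%) and 3 and 1 of 12 in the Rxfp1 group (6.66% and 7.72%). Of 26 synaptic adhesion genes, 5 were higher (Tenm3, Adgrl2, Cntn4, Cntn5 and Cntn6) and 2 were lower (Il1rapl2 and Cntnap5c), with a median of 0.17. Tenm3 had the highest ratio of these, 3.42 (3.24 to 3.59), and it was at 3771 CPM in the Fn1 group, 1343 CPM in the Gpc6 group and 1405 CPM in the Rxfp1 group, against 719 CPM. Within the groups the synaptic adhesion list split: 10 of 24 genes were higher and 5 lower in the Fn1 group, 2 of 22 higher and 6 lower in the Gpc6 group, and 4 of 18 higher and 4 lower in the Rxfp1 group, beside the same shares of all genes. Cntnap5a and Cntnap5b, contactin-associated proteins, were among the higher genes of the first and the lower genes of the other two.

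Of 27 axon guidance genes, 1 was higher, Sema6d, at 819 against 399 CPM, and 4 were lower, against 2.48% and 2.7% of all genes. Dcc, the netrin receptor, was at 1065 against 2588 CPM, and it was at 1106, 687 and 1093 CPM in the Gpc6, Fn1 and Rxfp1 groups. Unc5d, another netrin receptor, was at 1442 CPM in the Gpc6 group, 2353 CPM in the Rxfp1 group and 145 CPM in the Fn1 group, so that its value over all members, 872 CPM, described none of them.

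Extracellular matrix genes, the subject of the study, lay on both sides. Of 19 above the floor, 4 were higher (Gpc6, Adamts2, Col23a1 and Fn1) and 5 were lower (Tnr, Reln, Spock1, Spock3 and Adamts17), with a median log2 ratio of -0.78, against 2.48% and 2.7% of all genes. By group, 1 was higher and 4 lower of 7 in the Gpc6 group (all genes 4.52% and 5.98%). The counts were 3 and 7 of 12 in the Fn1 group (all genes 5.54% and 7.89%). In the Rxfp1 group they were 2 and 0 of 7 (all genes 6.66% and 7.72%). Tnr, tenascin-R of perineuronal nets, was at 358 against 765 CPM. It was at 270 CPM in the Gpc6 group, 228 CPM in the Fn1 group and 836 CPM in the Rxfp1 group. The list of Il33 and its receptor chain summed to 270 against 356 CPM, and none of it passed 2-fold over all members. By group its ratio was 1.5 (1.22 to 1.83) in the Gpc6 group, 0.343 (0.242 to 0.473) in the Fn1 group and 0.721 (0.457 to 1.08) in the Rxfp1 group, and nearly all of its UMIs were of Il1rap, the coreceptor chain, which was 2-fold or more lower in the Fn1 group.

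Counts of receptor and channel genes past 2-fold differed by list over all members, where 2.48% of all genes were higher and 2.7% lower. Of 20 glutamate receptor genes, Grm8, a presynaptic metabotropic receptor, was 2-fold or more higher, at 844 against 331 CPM, and 0 were lower. It was in every nucleus of the Fn1 group, at 1175 CPM, and at 638 and 357 CPM in the Gpc6 and Rxfp1 groups. By group, 2 glutamate receptor genes were higher and 3 lower of 19 in the Fn1 group (all genes 5.54% and 7.89%). In the Gpc6 group 1 was higher and 1 lower of 17 (all genes 4.52% and 5.98%). Grm3 was the higher gene of the Gpc6 group and among the lower genes of the Fn1 group. None of 13 GABA receptor genes passed 2-fold in either direction over all members, while Gabra3 was 2-fold or more higher in the Fn1 group. Of 29 potassium and HCN channel genes, 2 were higher, Kcnh7 and Kcnip3, and 3 were lower, both larger shares than over all genes. Kcnh7, an ether-a-go-go-related channel, was at 3499 against 1570 CPM, with 3835, 4055 and 2141 CPM in the Gpc6, Fn1 and Rxfp1 groups. Kcnc2, a fast delayed rectifier of the Kv3 family, was at 210 against 553 CPM and below the non-members in each group. Of 8 monoamine and acetylcholine receptor genes, 0 were higher and 1 was lower, Htr4. Among 20 sodium and calcium channel genes, 0 were higher and 1 was lower, Cacnb2. Of the neuropeptide genes and of their receptors other than Npsr1, 0 reached the floor.

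Classes of control nuclei, each defined in part by genes of the rule, were set beside the members. Against 698 nuclei with Vwc2l and Tshz2 and without Gad1, Gad2 or Foxp2, of 3982 genes 44 were 2-fold or more higher in the members (1.1%) and 61 were lower (1.53%). This class was not separate from the clusters of the members. Of the 358 non-members of the Gpc6 cluster, 316 held Vwc2l and 355 held Tshz2. How many of the 698 lay in that cluster was not counted. Fn1, Stac, Vat1l and Angpt1 led the higher genes, with Angpt1 at 123 against 14.6 CPM. Sema5b, a semaphorin, led the lower genes, with 3 UMIs in the members and 261 in that class, and Sntb1, Kcnh8 and Ptpru followed. Pdzrn3 had a UMI in 56.2% of that class and in 55.6% of the members.

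Against 109 nuclei with 2 or more Fn1 UMIs and without Gad1 or Gad2 that were no members, 79 of 3540 genes were 2-fold or more higher (2.23%) and 35 were lower (0.989%). Meis2, Kcnk2 and Gpc6 led the higher genes, with Gpc6 at 677 against 103 CPM, and Fn1, which had chosen that class, Rnf182, Etfa and Fras1 led the lower genes. The last class was 73 nuclei with Foxp2 and Hs3st2 and without Gad1, Gad2 or Vwc2l. Against it, 40 of 2222 genes were higher (1.8%) and 62 lower (2.79%), or 70 and 49 with trimmed-mean scaling. Fn1, Col23a1, Rxfp1 and Fstl4 led the higher genes of that comparison. Hs3st5, Hs3st4, Plcxd3 and Hs3st2 led the lower ones, with Hs3st4 at 390 against 2077 CPM, and Hs3st2 had chosen that class.

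The members were present in nuclei of both sexes of the control pool, taken as a rough stand-in for its 2 mice. Xist without any Y-linked UMI was seen in 4725 nuclei, of which 69 were members (1.46%, 1.14 to 1.84%). A Y-linked UMI without Xist was seen in 2201, of which 38 were members (1.73%, 1.22 to 2.36%). The 2 intervals overlapped. Another 2232 nuclei held both kinds of UMI, 31 of them members, and 1642 held neither, 31 of them members, and neither part includes these. The Gpc6, Fn1 and Rxfp1 groups gave 26, 25 and 13 members in the first part and 14, 18 and 4 in the second.

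In the IL-33 enriched library 1 of 1079 nuclei met the rule (0.0927%, 0.00235 to 0.515%). Its 23 nuclei with 4 or more of the 7 genes were 2.13% (1.36 to 3.18%), against 6.60% (6.14 to 7.09%) in the control library. Glis3, which the rule excludes, had a UMI in 75.9% of the enriched nuclei and in 39.9% of the control nuclei. Sort, genotype, animal and library differ together between the 2 libraries and cannot be told apart.

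In the mouse genome (GRCm38, GENCODE M21), Pdzrn3 lies on chromosome 6 from 101149609 to 101377897 and Npsr1 on chromosome 9 from 24097996 to 24316398. Vwc2l, whose zero requirement took most of the Gpc6 cluster, spans 70725715 to 70885397 of chromosome 1. The genes that lead the 3 clusters are Gpc6 on chromosome 14 (116925315 to 117976544), Fn1 on chromosome 1 (71585520 to 71653200) and Rxfp1 on chromosome 3 (79641611 to 79737880). All 6 are annotated as protein-coding.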

How the data were processed

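The authors' deposited tables hold 1 value per gene and nucleus, natural log values of UMI counts scaled per nucleus. Per the submitters' processing notes, the tools were Cell Ranger 2.1, STAR and Seurat 2.3.4 with mm10 (GRCm38); no source used here says how introns and multiply mapped reads were counted. UMIs were recovered from the log values with the scale of each nucleus, and 100% came out whole within 0.01. The tables hold nuclei of at least 1001 genes.

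Members were taken by the rule and summed; levels are CPM over the summed UMIs of a group. A ratio of 2 or more (or its inverse) counted as a difference among genes with at least 20 expected UMIs in the smaller group, the 12 rule genes left out. The members, lists and rules were chosen with earlier results of these data known. Intervals are exact at 95% (Clopper-Pearson, Poisson, conditional binomial). Named genes were the 15 highest and 10 lowest ratios and the 4 at each end against each comparison class, with the same direction in Xist-positive and Y-positive nuclei, plus members of the lists; genes that separate the clusters were added after their values were seen.

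Clustering used scanpy 1.11.5 (2000 variable genes, 30 components, 15 neighbours, Leiden resolution 0.8). Doublets predicted by Scrublet were kept, and left out as an alternative. The ratio step was tested on simulated data. Alternatives covered scaling, the floor, depth, the rule, doublets, sex and clustering. Coordinates are from GENCODE M21, where 18351 of 19089 gene names matched. Values of a withheld item are not reported here.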

Additional observations from a re-analysis of the deposited data

How the results depend on the processing

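The number of nuclei that met the rule was 363 with 3 or more genes, 71 with 5 or more, 713 with no zero requirement and 447 with Vwc2l allowed, the last chosen after seeing the data, against 169; it was 154 after thinning, of which 97 were members, and 162 without doublets. The 98 higher and 107 lower genes became 1622 and 6917 with no floor, 54 and 65 with 5 or more of the 7 genes, 46 and 66 among Y-positive nuclei, and 56 higher among Xist-positive nuclei, where fewer nuclei left fewer genes to count except with no floor. With the members of the Gpc6 cluster alone 62 of 1371 genes were higher (4.52%), against 2.48% of 3958 over all members. Counts of settings with different numbers of genes are therefore not directly comparable. In that setting Adamts2, Brinp3 and Stac turned to log2 ratios of -1.67, -0.95 and -1.69, and Adamts2 was at -0.10 with 5 or more genes. Other settings kept both counts within 1.5 times. The counts within the lists, run only with the other 2 scalings and against nuclei without the 5 excluded genes, also stayed within 1.5 times. Against the Foxp2 and Hs3st2 nuclei 70 genes were higher with trimmed-mean scaling and 61 with median-of-ratios scaling, against 40. The share of members in their main cluster was 50.3% with genes scaled, where most Gpc6 and Rxfp1 members joined, and stayed within its interval at 3 other settings. No paired analysis was possible because each group is 1 library. A list gene under the floor was not compared.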
